A study of Mus musculus with 4 samples.

Results

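Methylation of mature B cells was compared with that of haematopoietic stem and progenitor cells (HSPCs) from Sca1-BCL6Δ mice, at fixed 1 kb stretches (tiles) of the autosomes in build mm9. For each tile the methylated and total reads were summed over CpGs with under 50 reads in both libraries, and a tile was kept with at least 10 summed reads in each library. This left 99796 tiles of 421973 autosomal tiles with a CpG covered in any of the 4 libraries of the study. Their median was 20 summed CpG reads in HSPCs and 25 in B cells. The rule used read numbers and positions only, so the methylation levels were free to fall either way.

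Sca1-BCL6Δ mice carry a mouse Bcl6 cDNA with a green fluorescent reporter, flanked by loxP sites and driven by the promoter of Ly6a (Sca1), a surface marker of stem and progenitor cells. They also carry the mb1-Cre allele of Cd79a, so that the cDNA is designed to be present in HSPCs and cut out once the B lineage switches on Cd79a. Wild-type mice carry neither allele, and all mice were on a CBAxC57BL/6J background; ages are not given in the labels. HSPCs were Sca1+Lin- cells sorted from bone marrow and B cells were B220+ cells sorted from peripheral blood, of Sca1-BCL6Δ mice for the comparison itself and of wild-type mice for the values set beside it. Each of the 4 libraries held DNA pooled from 6 to 9 mice, and no condition had a replicate library. The methods text names independent transgenic lines without saying which line gave these cells. Tissue, cell type and the presence of the transgene changed together between the libraries compared, so they cannot be told apart. All tests below set the reads of libraries against each other and carry no variation between mice.

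In reduced representation bisulfite sequencing (RRBS), DNA is cut at CpG-containing sites and bisulfite turns unmethylated cytosines into uracil, so that a read shows which CpGs of 1 DNA molecule were methylated. Most CpGs of a mammalian genome are methylated, while dense clusters of CpGs at gene starts (CpG islands) are mostly free of methylation. During blood cell formation, loss of methylation at enhancers and promoters of a lineage and gain at those of other lineages are well known. Stem and progenitor cells hold many cell states, whereas blood B cells are a more uniform, late stage.

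The HSPC library covered 990678 autosomal CpGs at a median of 4 reads and the B cell library 1084930 at a median of 5. CpGs with 50 reads or more numbered 443 and 523 and took 5.37% and 6.89% of all CpG reads. B cell markers could not be used to check the label, because of 15 promoters of such genes 1 could be located and 0 had enough reads. The wild-type HSPC library was set apart from the other 3 by low levels at methylated tiles, with a mean of 78.9% where the other libraries had 93.7% to 95.2%. Every wild-type value below rests on it.

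Gene starts were located with promoter sequences of RefSeq (build GRCm38.p6), placed on the mm9 CpG positions of the files by the spacing of their CpGs. The 3 sequences shown are promoters in or beside tiles described below: Gm13205, whose window lies inside the only tile of 20 or more CpGs called lower in B cells, and Snai1 and Gadd45a, the placed coding genes whose starts lie closest to tiles called higher. Each sequence of 300 bases runs 5′ to 3′ along the gene and ends 50 bases after its start, and capitals mark the CpGs that a read covered in at least 1 library. In GRCm38.p6 the windows are chr4:148952273-148952572 on the minus strand for Gm13205, chr2:167537945-167538244 on the plus strand for Snai1 and chr6:67037358-67037657 on the minus strand for Gadd45a.
Gm13205: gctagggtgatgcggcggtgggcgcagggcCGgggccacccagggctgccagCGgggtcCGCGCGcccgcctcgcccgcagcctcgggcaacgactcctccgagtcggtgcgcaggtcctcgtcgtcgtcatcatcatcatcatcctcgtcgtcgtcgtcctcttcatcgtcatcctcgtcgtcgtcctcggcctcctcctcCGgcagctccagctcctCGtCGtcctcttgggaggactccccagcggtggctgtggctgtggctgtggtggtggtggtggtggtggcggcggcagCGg
Snai1: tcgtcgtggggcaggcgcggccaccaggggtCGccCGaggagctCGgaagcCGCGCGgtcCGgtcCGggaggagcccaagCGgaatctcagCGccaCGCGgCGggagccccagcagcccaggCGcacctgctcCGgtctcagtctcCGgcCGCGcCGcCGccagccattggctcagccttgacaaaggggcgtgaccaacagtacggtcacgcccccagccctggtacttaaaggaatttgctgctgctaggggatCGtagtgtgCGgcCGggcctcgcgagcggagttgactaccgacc
Gadd45a: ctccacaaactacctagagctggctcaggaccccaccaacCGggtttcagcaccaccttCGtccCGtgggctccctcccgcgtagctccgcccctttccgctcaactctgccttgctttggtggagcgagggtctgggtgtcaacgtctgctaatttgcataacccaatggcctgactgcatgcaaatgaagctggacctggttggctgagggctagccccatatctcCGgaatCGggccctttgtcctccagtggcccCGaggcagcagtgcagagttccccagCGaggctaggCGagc

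These windows hold 35, 34 and 14 CpGs, of which 9, 23 and 8 were covered. The median over the 32851 windows of the table was 7 CpGs. RRBS reads begin at cut sites of MspI and TaqI. The MspI site CCGG, which reads the same on both strands, stands in 52.8% of all windows and at 2, 5 and 2 places in these, while the TaqI site TCGA stands in 21.99% of all windows and in none of these. Gm13205, a long non-coding RNA gene, was methylated in HSPCs at 31 of 31 CpG reads of its window and in B cells at 3 of 27 (11.1%). The Snai1 window was methylated at 0 of 77 CpG reads in HSPCs and at 5 of 138 (3.62%) in B cells. The Gadd45a window had 5 of 46 (10.9%) and 0 of 47. Neighbouring CpGs share reads, so the limits of these counts of 0 were taken from CpGs more than 50 bp apart: 15 HSPC reads at Snai1 allow up to 20%, and 10 B cell reads at Gadd45a up to 30%. The measured levels of the Snai1 and Gadd45a windows were low in both cell types, whereas the Gm13205 window lay at opposite ends. The Gm13205 window had 8 reads in each library at CpGs more than 50 bp apart, which allow up to 37.5% in B cells. Its difference did not pass the test (adjusted p = 0.92, Fisher's exact test).

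Over all tiles the methylation level was slightly higher in Sca1-BCL6Δ B cells than in Sca1-BCL6Δ HSPCs. Mean levels were 67.6% in HSPCs and 68.7% in B cells, a mean difference of 1.06 percentage points (SE 0.055 over 19 autosomes). Chromosomes are not replicates, and this SE only describes how evenly the difference was spread: it was positive on all 19 autosomes, from 0.645 points on chromosome 4 to 1.47 on chromosome 13. Differences of at least 20 points upward were found at 5731 tiles (5.74%) and downward at 4016 (4.02%). At 50 points or more there were 410 tiles (0.411%) higher and 263 (0.264%) lower. Counting error is part of each of these shares.

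The direction depended on the level of the tile. Level classes were set by the mean of both libraries, which treats them alike: unmethylated below 20%, methylated above 80% and intermediate between. The 22243 unmethylated tiles had 9.76% in HSPCs and 9.00% in B cells, a difference of -0.753 points (SE 0.061) that was negative on all 19 autosomes. The 60029 methylated tiles had 93.7% and 95.2%, a difference of 1.53 points (SE 0.036) that was positive on all 19. Methylated tiles were thus closer to fully methylated in B cells and unmethylated tiles closer to fully unmethylated. The 17524 intermediate tiles had 51.8% and 53.5% on average (1.77 points, SE 0.19), with 3365 (19.2%) at least 20 points higher and 2640 (15.1%) at least 20 points lower.

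CpG density, counted as CpG positions of the tile covered in any library, split the tiles in the same way. Tiles of 1 to 4 CpGs (51934) had a mean difference of 1.80 points (SE 0.071) and tiles of 5 to 9 CpGs (27802) of 0.997 (SE 0.093). Tiles of 10 to 19 CpGs (10797) had -0.713 (SE 0.10) and tiles of 20 or more (9263) had -0.770 (SE 0.071). In tiles of 1 to 4 CpGs, 7.19% were at least 20 points higher and 4.23% lower, while in tiles of 20 or more CpGs 22 (0.238%) were higher and 63 (0.680%) lower. Over all kept tiles, CpG-poor tiles were therefore more often higher in B cells and CpG-rich tiles more often lower. With at least 50 reads in each library the excess of gain at CpG-poor tiles was absent. There 110 tiles of 1 to 4 CpGs had 3 higher and 3 lower, and 1766 of 5 to 9 CpGs had 42 and 48.

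When the splits were crossed over all kept tiles, the sign changed with density only among intermediate tiles. Methylated tiles had a positive mean and unmethylated tiles a negative mean at every density. Among intermediate tiles the mean difference passed from 2.94 points (SE 0.26) at 1 to 4 CpGs through 1.05 (SE 0.41) and -1.54 (SE 0.39) to -1.88 (SE 0.86) at 20 or more CpGs. With at least 50 reads in each library this change of sign was not seen. The intermediate means there were -0.953 (SE 3.50), -0.549 (SE 1.57), -0.572 (SE 0.46) and -2.32 (SE 0.80), in the same order of density. Among methylated tiles it was 1.63, 1.38 and 0.998 points up to 19 CpGs, and 0.557 (SE 0.62) at 20 or more CpGs. In the latter the mean was positive on 10 autosomes and negative on 8. Among unmethylated tiles it was -0.096 (SE 0.27) at 1 to 4 CpGs, positive on 9 autosomes and negative on 10. It was -0.703, -1.01 and -0.748 at the higher densities. At methylated tiles of up to 19 CpGs the share at least 20 points higher stood above the share lower, as the plot of gain and loss by class shows.

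**Figure D1:**
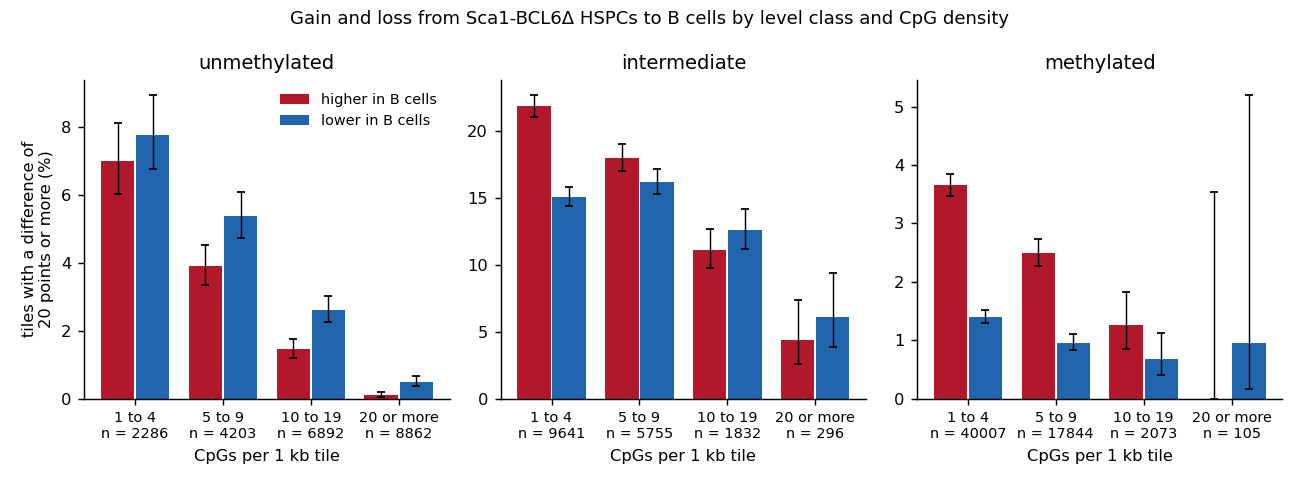
Share of tiles (%) at least 20 percentage points higher (red) or lower (blue) in Sca1-BCL6Δ B cells than in HSPCs, by CpGs per tile in 3 panels of level class, each with its own vertical scale; bars carry Wilson 95% intervals for the number of tiles. Gain outweighs loss at 21.9% against 15.1% in intermediate tiles of 1 to 4 CpGs, and loss outweighs gain at 0.497% against 0.102% in unmethylated tiles of 20 or more CpGs.

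Tiles left the middle range in both directions from HSPCs to B cells. Intermediate tiles of HSPCs that were methylated in B cells numbered 6521, against 3536 with the opposite passage. Intermediate tiles of HSPCs that were unmethylated in B cells numbered 3505, against 2479 with the opposite passage. The HSPC library was the shallower at these tiles (median 20 against 25 reads), and the part of depth in these counts was not tested. Among the 17047 tiles with at least 50 reads in each library the passages toward the ends were again the more frequent, with 926 against 456 at the unmethylated end and 85 against 49 at the methylated end.

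The balance of gain and loss also moved with the reads behind a tile. Where the shallower library had 10 to 19 reads (53396 tiles), 7.77% of tiles were at least 20 points higher and 5.07% lower. At 20 to 49 reads the shares were 4.90% and 3.75%, at 50 to 99 reads 1.65% and 2.39%, and from 100 to under 200 reads 0.348% and 0.505%. At 200 reads or more 0 of 3804 tiles were higher, with an upper Wilson limit of 0.101%, and 1 was lower. Reads, density and level went together: tiles of 10 CpGs or more made up 1.70% of the tiles with 10 to 19 reads and 99.0% of those with 100 to under 200, and unmethylated tiles 5.31% and 94.3%. The overall mean difference turned to -0.657 points (SE 0.073) among tiles with at least 50 reads. Within classes the directions at that depth were -0.827 points for unmethylated and 1.21 for methylated tiles, as over all tiles. For intermediate tiles the mean was -0.932 points (SE 0.54) at that depth, with 99 tiles at least 20 points higher and 96 lower.

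**Figure D2:**
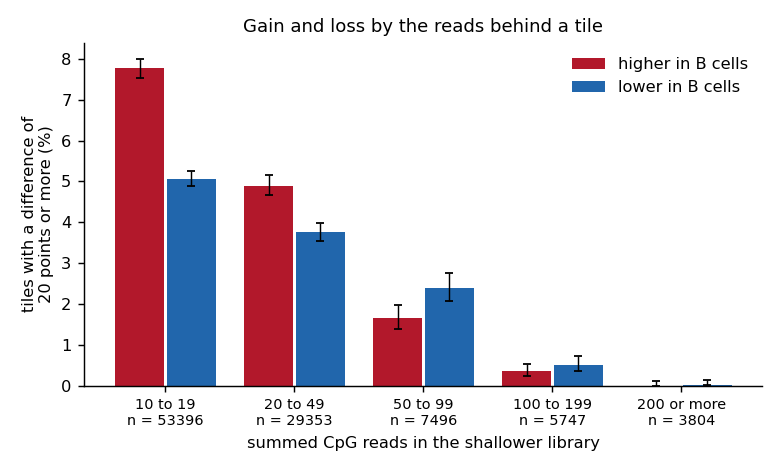
Share of tiles (%) at least 20 percentage points higher (red) or lower (blue) in Sca1-BCL6Δ B cells, by the summed CpG reads of the shallower of the 2 libraries, with Wilson 95% intervals for the number of tiles. The higher share exceeds the lower below 50 reads (7.77% against 5.07% at 10 to 19) and is the smaller from 50 reads on.

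Wild-type cells differed by cell type in the same direction in the level classes, but by other amounts. At the 94062 tiles also kept in wild-type, methylated tiles had 93.7% and 95.2% in the HSPCs and B cells of Sca1-BCL6Δ mice, and 78.9% and 94.3% in the wild-type pair. The B cell minus HSPC difference there was 1.52 points in Sca1-BCL6Δ and 15.4 in wild-type. At unmethylated tiles it was -0.770 and -2.29 points. At tiles of 20 or more CpGs it was -0.770 and -1.84 points, and at tiles of 10 to 19 CpGs it was -0.701 and 0.984, of opposite sign. Intermediate tiles had opposite signs at 10 to 19 CpGs (-1.49 and 2.30 points) and at 20 or more (-1.88 and 2.16). At the 17032 shared tiles with at least 50 reads in each Sca1-BCL6Δ library, which are mostly unmethylated, the mean differences were -0.654 and -0.705 points.

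**Figure D3:**
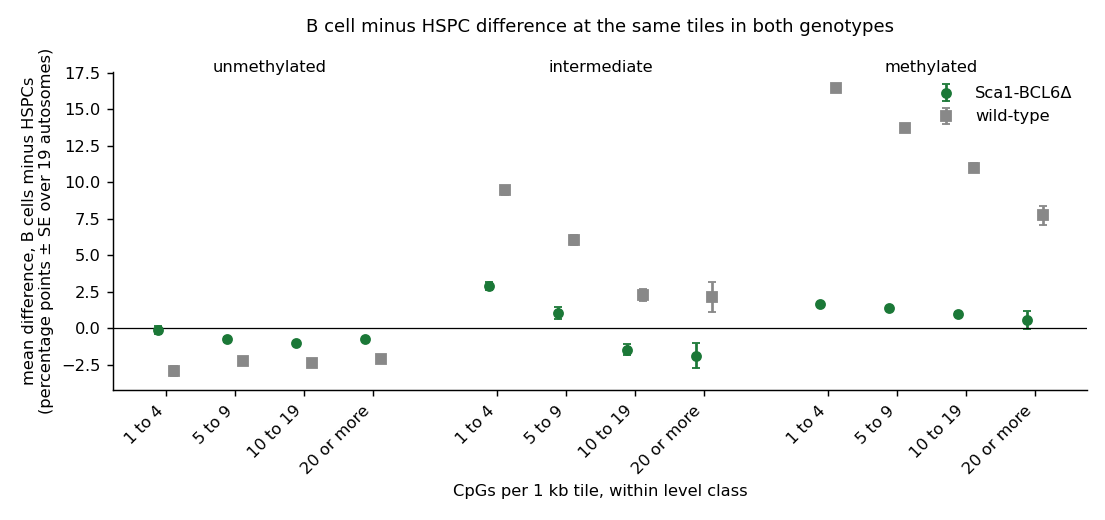
Mean methylation difference, B cells minus HSPCs, in percentage points (± SE over 19 autosomes) at the same tiles in Sca1-BCL6Δ (green circles) and wild-type (grey squares), by CpGs per tile within level class. Sca1-BCL6Δ values lie between -1.88 and 2.89, while wild-type values reach 16.5 at methylated tiles of 1 to 4 CpGs.

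At tiles of large gain or loss the wild-type differences were smaller, and at the losses their mean sign varied with the reads behind a tile. At 5268 shared tiles at least 20 points higher in Sca1-BCL6Δ B cells, wild-type levels were 56.7% in HSPCs and 70.2% in B cells, a difference of 13.5 points beside 9.84 over all shared tiles. At 3758 tiles at least 20 points lower, wild-type levels were 47.1% and 49.1%. Across the 94062 tiles Pearson's r between the B cell minus HSPC differences of the genotypes was 0.139, and Spearman's rho was 0.110. Over 16489 tiles with at least 50 reads in each of the 4 libraries, r was 0.0924. Both are weak, the tiles of a library share its depth and preparation, and counting error lowers such values.

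Fisher's exact test on reads of CpGs more than 50 bp apart, with Benjamini-Hochberg adjustment over all 99796 tiles, called 38 tiles, taking an adjusted p under 0.05 together with 20 points or more of difference. Of these 24 were higher in B cells (0.024% of tiles) and 14 lower (0.014%). An unadjusted p under 0.05 was reached by 2930 tiles (2.94%), 1645 higher and 1285 lower. After thinning, the median tile kept 12 reads in HSPCs and 15 in B cells. The smallest called difference was 44.4 points. All 38 tiles were in the intermediate class, which follows from differences of this size, because the class is set by the mean of the same levels. By density 16 had 1 to 4 CpGs, 19 had 5 to 9, 2 had 10 to 19 and 1 had 20 or more.

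The 24 tiles called higher were mostly unmethylated to intermediate in HSPCs and nearly fully methylated in B cells. Their HSPC levels ran from 4.88% to 41.7% with a median of 26.5%, and their B cell levels from 77.5% to 100% with a median of 96.8%. They lay on 14 chromosomes and had 1 to 12 CpGs. Of 23 that were also kept in wild-type, 22 were higher in wild-type B cells than in wild-type HSPCs (72.7% of all shared tiles were) and 4 were called so (4.76% of all). Wild-type HSPCs had a median of 70.0% at them and wild-type B cells 90.2%. At all 23 the wild-type HSPC level was the higher of the HSPC levels. The tiles were chosen for a low Sca1-BCL6Δ HSPC value beside a high B cell one. None of the 23 was called for a difference between genotypes in the B cell minus HSPC difference (0.00213% of all shared tiles were). In that test 11 had an unadjusted p under 0.05, beside 4.67% of all shared tiles. The difference they were chosen for enters that test, so this count is a description only.

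The 10 largest gains are given with the nearest protein-coding gene start that could be placed within 500 kb; unplaced genes can lie nearer. At chromosome 13, 37635001 to 37636000, a single CpG was methylated in 1 of 12 HSPC reads and 11 of 11 B cell reads. Its nearest start, 282 kb away, was that of Rreb1, a RAS-responsive zinc finger transcription factor. Chromosome 5, 114400001 to 114401000, had 3 of 24 (12.5%) and 14 of 14, 41.3 kb upstream of Coro1c, an actin-binding coronin. Both rest on few reads: the Wilson 95% interval of the tested reads was 1.49% to 35.4% in HSPCs at the former and 4.34% to 31.0% at the latter. Chromosome 2 held the next pair. The tile at 161337001 to 161338000, where no start was placed, had 5 of 36 (13.9%) and 65 of 68 (95.6%). It too rests on few reads, because 1 of its CpGs entered the test, with 1 of 9 HSPC reads and 17 of 17 B cell reads. The tile at 27448001 to 27449000 had 11 of 54 (20.4%) and 49 of 49. It lay 83.7 kb upstream of Rxra, the retinoid X receptor alpha, and had the smallest adjusted p of the gains (0.000355, Fisher's exact test). Wild-type levels there were 65.8% in HSPCs and 92.9% in B cells, in the same order.

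Chromosome 8, 3665001 to 3666000, had 4 of 19 (21.1%) methylated reads in HSPCs and 18 of 18 in B cells, 33.9 kb downstream of the start of Stxbp2, which acts in granule release. Chromosome 2, 68798001 to 68799000, had 6 of 25 (24.0%) and 34 of 35 (97.1%), 98.5 kb downstream of the start of Cers6, a ceramide synthase. At both, wild-type HSPCs were less far from B cells, with 64.7% and 85.0%. The tile at chromosome 6, 66985001 to 66986000, lay 1.40 kb downstream of the start of Gadd45a, a stress-response gene, and had 2 of 41 (4.88%) and 31 of 40 (77.5%). Wild-type levels were 59.2% and 72.5% there. Chromosomes 15 (64012001 to 64013000) and 18 (75607001 to 75608000) had 27.6% and 25.0% in HSPCs and 100% and 97.3% in B cells, with no placed start. The tenth, chromosome 5 from 144236001 to 144237000, had 5 of 18 (27.8%) and 26 of 26, with the start of Grid2ip, a scaffold of glutamate receptors, at 104 kb. Adjusted p-values of the 24 gains ran from 0.000355 to 0.0392 (Fisher's exact test).

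Of the other 14 gains, 3 are described that were picked after their values were seen because of the genes beside them. Of the remaining 11, 1 had no placed start, and the nearest starts of the others were those of Ipo9, Susd1, Cpne5, 1700018B08Rik, Mrps33, Tbc1d9b, Usp7, Vps18, Dgkh and Gk5. Chromosome 6, 88116001 to 88117000, 31.7 kb upstream of Gata2, a transcription factor of stem and progenitor cells, had 12 of 46 (26.1%) in HSPCs and 32 of 36 (88.9%) in B cells. Chromosome 8, 124820001 to 124821000, 14.0 kb downstream of the start of Zfpm1, a partner protein of GATA factors, had 7 of 23 (30.4%) and 26 of 27 (96.3%). Chromosome 2, 167364001 to 167365000, 306 bp downstream of the start of Snai1, a zinc finger repressor, had 8 of 20 (40.0%) and 43 of 45 (95.6%). In wild-type these tiles went from 59.2% to 76.5%, from 53.3% to 89.3% and from 63.2% to 91.7%. The Zfpm1 and Snai1 tiles were called higher in wild-type as well.

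At Snai1 and Gadd45a the tiles holding the gene start were low in both cell types. The tile holding the Snai1 start had 24 of 210 (11.4%) in HSPCs and 11 of 204 (5.39%) in B cells, directly next to the tile that rose to 95.6%. At Gadd45a the tile holding the start had 6.67% and 0.847%, the next tile into the gene 20% and 1.37%, and the following one rose from 4.88% to 77.5%. At Gata2 the tile with the start had 14.4% and 5.24%, and its promoter window had 30.3% (10 of 33) and 6.45% (4 of 62), which was not called. Only 7 of the 14 covered CpGs of that window had reads in both libraries. At its CpGs more than 50 bp apart 5 HSPC reads remained, so the values compare few reads and partly different CpGs. The other tiles shown upstream of Gata2 went both ways, and none passed the test. The tile 81.2 kb before the start had 29.4% and 90.9% (adjusted p = 0.58, Fisher's exact test). Nearer to the start, the tile from 88143001 to 88144000 had 43.2% and 12.5%, and that from 88082001 to 88083000 had 24.3% and 5.13%. These tiles were picked after their values were seen.

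The 14 tiles called lower had intermediate to high levels in HSPCs and low ones in B cells. HSPC levels ran from 44.4% to 95.7% (median 86.6%) and B cell levels from 0% to 31.5% (median 10.1%). They lay on 8 chromosomes, 4 of them on chromosome 7, which holds 6.63% of all kept tiles. Of the 14, 12 had under 10 CpGs, as did 79.9% of all kept tiles. The order was the same in wild-type at 13 of the 14 (25.3% of all shared tiles were lower in wild-type B cells). At 11 the wild-type loss was at least 20 points (2.16% of all shared tiles), and 7 were called lower (0.283%). Wild-type medians were 62.9% for HSPCs and 27.7% for B cells. At 13 tiles the wild-type HSPC level was the lower of the HSPC levels. These tiles were chosen for a high Sca1-BCL6Δ HSPC value beside a low B cell one.

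The largest loss was at chromosome 3, 129125001 to 129126000, with 12 of 13 (92.3%) in HSPCs and 0 of 16 in B cells, which allows up to 18.8%. The nearest placed start, that of the growth factor gene Egf, lay 302 kb away. Chromosome 14, 32039001 to 32040000, 24.5 kb downstream of the start of Phf7, had 34 of 38 (89.5%) and 7 of 54 (13.0%). Chromosome 4, 33026001 to 33027000, 10.8 kb downstream of the start of Ankrd6, an ankyrin repeat gene, had 23 of 27 (85.2%) and 5 of 48 (10.4%). The latter was called lower in wild-type too, with 78.4% and 21.2%. Chromosome 19, 38100001 to 38101000, lay 17.1 kb downstream of the start of Myof, a membrane repair protein, and had 34 of 43 (79.1%) and 3 of 66 (4.55%).

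Chromosome 7 held 3 of the 10 largest losses, none within 50 kb of a placed coding start. The tile from 139913001 to 139914000, 90.9 kb downstream of the start of Fam53b, had 45 of 48 (93.8%) in HSPCs and 9 of 43 (20.9%) in B cells. That from 16549001 to 16550000, 134 kb upstream of Napa, a vesicle fusion adaptor, had 31 of 41 (75.6%) and 2 of 64 (3.13%), and that from 118067001 to 118068000, 155 kb downstream of the start of Ampd3, an AMP deaminase of red cells, had 80.6% and 9.76%. All 3 were called lower in wild-type, with differences of -47.5, -56.3 and -37.5 points. Chromosome 11, 51460001 to 51461000, 10.6 kb upstream of Rmnd5b, had 30 of 32 (93.8%) and 14 of 66 (21.2%). Chromosome 8, 26214001 to 26215000, where no start was placed, had 34 of 44 (77.3%) and 3 of 59 (5.08%), and wild-type cells had nearly the same levels, 78.1% and 7.89%. Chromosome 1, 58994001 to 58995000, 35.3 kb downstream of the start of Trak2, which links mitochondria to motor proteins, had 22 of 23 (95.7%) and 7 of 28 (25.0%). Adjusted p-values of the 14 losses ran from 2.16e-06 to 0.0430 (Fisher's exact test).

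**Figure D4:**
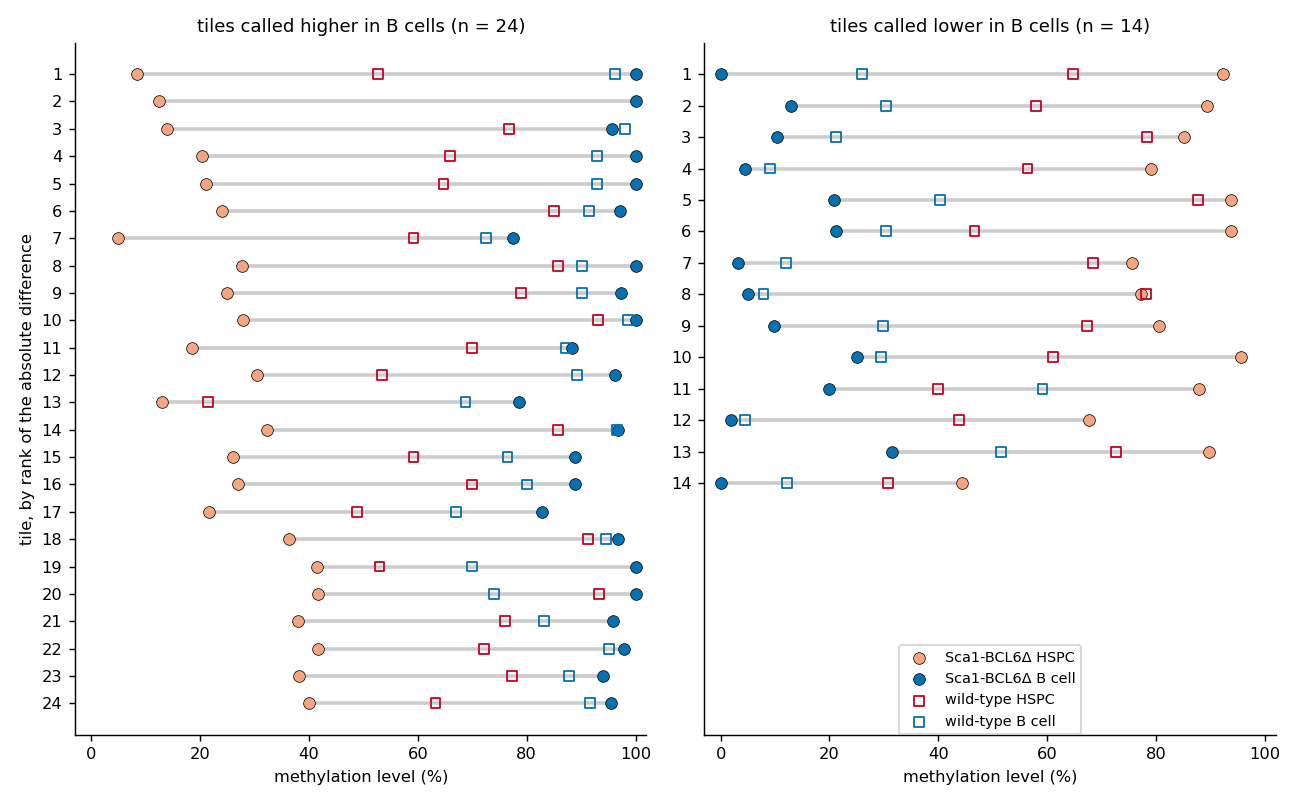
Methylation level (%) at the 24 tiles called higher (left) and the 14 called lower (right) in Sca1-BCL6Δ B cells, ordered by the size of the difference, with filled circles for Sca1-BCL6Δ and open squares for wild-type libraries. Wild-type squares mostly lie between the circles in the same order, while tile 11 on the right has 39.9% in wild-type HSPCs and 59.2% in wild-type B cells.

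A single tile of 20 or more CpGs was called lower, and wild-type cells had the opposite order there. Chromosome 4, 148326001 to 148327000, named for its density, holds 39 covered CpGs and the promoter window of Gm13205 whose sequence is printed above. It had 132 of 150 methylated CpG reads (88.0%) in HSPCs and 41 of 206 (19.9%) in B cells. At the 18 CpGs with at least 3 reads in each library the HSPC level ran from 50% to 100% and the B cell level from 0% to 45.5%. All 18 were lower in B cells, but they share reads and the tile was chosen for its difference, so they are not separate results. The test used 8 CpGs more than 50 bp apart, with 33 of 39 HSPC reads and 11 of 62 B cell reads methylated. The call was kept in 7 of 8 other settings and lost when 1 CpG per tile was tested. Wild-type HSPCs had 39.9% of 273 CpG reads and wild-type B cells 59.2% of 502. The difference of the differences between genotypes, -87.3 points, was called in the test of the difference itself. That test called 2 of 94062 tiles (0.00213%), and 4393 (4.67%) had an unadjusted p under 0.05.

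Placed gene starts had a lower mean level in B cells, and no single one passed the test. Of the RefSeq windows, 9911 of 8777 genes were placed, 9672 of them on autosomes. With at least 10 reads in each library, and 1 window kept where windows of a gene overlapped, 7738 autosomal windows (7366 genes) remained. Their mean level was 11.2% in HSPCs and 10.2% in B cells, a difference of -1.03 points (SE 0.13). Fisher's exact test called 0 windows (0%), while 200 (2.58%) had an unadjusted p under 0.05. Windows at least 20 points higher numbered 194 (2.51%) and lower 367 (4.74%). Most windows (7094) were unmethylated, with a mean difference of -0.852 points beside -0.753 for all unmethylated tiles, while the 148 methylated windows had 1.65 points (SE 0.77). The 496 windows of intermediate level had -4.33 points (SE 0.98), with 82 higher and 128 lower by at least 20 points.

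The windows described next, none of them called, were picked after their values were seen from the 10 with the smallest p in each direction among those differing by at least 20 points. Angptl8, a secreted regulator of lipid metabolism, had 10 of 28 (35.7%) in HSPCs and 23 of 25 (92.0%) in B cells, and Adra2a, an adrenergic receptor, 1 of 96 (1.04%) and 27 of 103 (26.2%). In wild-type B cells the Angptl8 window was also the higher, with 100% against 73.8%. Downward the first was Gm13205, followed by a window shared by Mapk6, an atypical MAP kinase, and 4933433G15Rik, with 26 of 115 (22.6%) in HSPCs and 0 of 183 in B cells. The 27 B cell reads at CpGs more than 50 bp apart allow up to 11.1% there. Sult2b1, a cholesterol sulfotransferase, had 25 of 63 (39.7%) and 5 of 58 (8.62%), and Arap1, a regulator of small GTPases, 66 of 255 (25.9%) and 3 of 208 (1.44%). In wild-type Sult2b1 had 31.3% and 34.1%, and Arap1 7.02% and 13.0%.

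Promoters of HSPC genes gave few values. Of 19 such genes 8 were placed and 7 had enough reads. Their median difference was -4.17 points beside -0.146 over all windows, 0 were called and 1, Gata2, was lower by at least 20 points (4.74% of all windows were). The Gata2 value rests on 5 HSPC reads at CpGs more than 50 bp apart. The median is the window of Flt3, a cytokine receptor of progenitors, with 2 of 16 reads (12.5%) in HSPCs and 1 of 12 (8.33%) in B cells, and the windows lay on both sides of 0. Runx1, a transcription factor needed to form blood stem cells, had 21.2% and 14.9%, Tal1, another such factor, 24.2% and 12%, and Meis1, a homeobox cofactor of HOX proteins, 12.5% and 27.8%. Hlf had 3.57% and 4.44%, and Cebpa, a factor of myeloid cells, 5.26% and 7.27%. For T cell genes, Tcf7, a factor of early T cells, was the only one with enough reads and had 10.5% and 13.6% at one window and 1.02% and 12.9% at another. Of 8 myeloid and 5 erythroid genes 0 were placed. The endogenous Bcl6 gene, whose cDNA the transgene carries, had 13.8% and 11.4% at one window and 1.89% and 3.18% at another, low in both cell types.

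Single reads with at least 3 CpGs showed how the levels were built. In methylated tiles 88.0% of 104277 such reads were wholly methylated in HSPCs and 90.0% of 129401 in B cells, and wholly unmethylated reads made up 0.738% and 0.279%. At the tiles called higher, 31 of 47 HSPC reads (66.0%) were wholly unmethylated and 51 of 60 B cell reads (85.0%) wholly methylated. At the tiles called lower, 67 of 84 HSPC reads (79.8%) were wholly methylated and 88 of 117 B cell reads (75.2%) wholly unmethylated. Mixed reads made up 13.3% to 17.1% at called tiles, beside 27.9% (HSPCs) and 29.8% (B cells) in all intermediate tiles. Called tiles were chosen for levels near opposite ends, so these shares are a description. In unmethylated tiles mixed reads were 10.1% in HSPCs and 11.4% in B cells, while wholly methylated reads were 5.41% and 4.38%. The reads were amplified by PCR and no removal of duplicates is recorded, so they need not be separate molecules, and intervals cover counting error only.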

How the data were processed

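RRBS libraries of 4 conditions, 1 pooled library each, were made from fragments of 40 to 350 bp with 18 PCR cycles, per the labels' protocols. The deposited CpG tables give methylated and total read counts per CpG, made by the authors with an in-house Zymo Research pipeline against mm9, whose version is not given in the sources used here. A deposited score equals 1000 times the methylated share and was not needed. The deposited read tables give the percent of methylated CpGs and the count of CpGs per read, used only for read patterns.

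CpGs with under 50 reads in both libraries were summed per 1 kb tile. For the test, CpGs were thinned to lie more than 50 bp apart, keeping the best covered first, because neighbours share reads. Methylated and unmethylated sums were compared with Fisher's exact test (two-sided) and Benjamini-Hochberg adjustment over 99796 tiles, and a call needed an adjusted p under 0.05 and 20 percentage points. The difference between genotypes was the z of the difference of their log odds ratios (pseudocount 0.5). Calculations used Python 3.11.15, numpy 2.4.6, pandas 2.3.3, scipy 1.17.1, numba 0.67.0 and matplotlib 3.10.9, and the tile test was tested on simulated data. Intervals are Wilson 95% intervals, and the limit for a count of 0 is 3 counts over the reads.

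Promoters of gene lists were to be read from an mm9 annotation. As none was used here, 300 bp RefSeq promoter windows (GRCm38.p6) were placed by the spacing of their CpGs, a choice made after the data were seen. A window was first matched over all chromosomes with at least 8 covered CpGs, all on CpGs of its sequence. It was kept on its RefSeq chromosome with the shift of a neighbouring match. Other windows needed at least 4 such CpGs and the shift of a neighbouring match. Of 5819 windows matched over all chromosomes, 99.48% fell on the chromosome that RefSeq gives, and 5758 of those had the shift of a neighbouring match. Named tiles are the 10 called tiles with the largest difference per direction, and others are marked as named later. Members, classes and lists were chosen with earlier results of these data known.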

Additional observations from a re-analysis of the deposited data

Results flagged for a closer look

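Tiles were looked at again where the B cell minus HSPC difference itself differed between Sca1-BCL6Δ and wild-type mice by the test of that difference, with 1 library per condition. The tile of chromosome 4 from 148326001 to 148327000, with the Gm13205 promoter window, had a difference of differences of -87.3 points: methylation was lower in Sca1-BCL6Δ B cells by 68.1 points and higher in wild-type B cells by 19.2.

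The tile of chromosome 7 from 25162001 to 25163000 had a difference of differences of -61.8 points. It holds 23 covered CpGs, and the nearest placed coding gene start, that of the zinc finger gene Zfp94, lay 60.3 kb away. Sca1-BCL6Δ levels were close, at 78.9% of 166 CpG reads in HSPCs and 72.5% of 171 in B cells. Wild-type levels were 30.1% of 296 and 85.4% of 419, so the wild-type HSPC library was the one that stood apart. That library had low levels at methylated tiles in general, and its part in this value was not tested.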

How the results depend on the processing

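No paired analysis was possible because each condition had 1 pooled library, and for the same reason no library could be left out. Raising the read minimum to 20 gave 3.41% of tiles higher, 2.82% lower and a mean difference of 0.463 points. A minimum of 50 gave 0.845%, 1.23% and a reversed mean of -0.657, with 1 tile called higher and 2 lower. The tiles kept there are mostly CpG-dense. Tiles of 500 bp gave 4.33% lower and a mean of 0.901, reads summed over all tiles a mean of 0.596, and a difference of at least 30 points 2.18% higher and 1.47% lower.

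Calls moved most with the test. Equal coverage gave 3 higher and 3 lower calls with shares of 6.14% and 4.46%, 1 CpG per tile 1 and 2, the Cochran-Mantel-Haenszel test 2 and 7, and a coverage limit of 20 reads 7 lower. Summing all CpGs, which counts shared reads several times, called 581 and 509. Of the 38 tiles, 9 kept the call under the Cochran-Mantel-Haenszel test and 3 with 1 CpG per tile, 5 of 36 kept it at equal coverage and 26 of 33 at the limit of 20 reads. All 38 kept it without a coverage limit and 0 reversed in any of these settings. Unmethylated tiles and those of 10 or more CpGs stayed lower in B cells, and methylated tiles higher, in every setting run. Intermediate tiles (-0.932) and tiles of 1 to 4 CpGs (-0.271) turned negative at a minimum of 50 reads.

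The read minimum itself mattered little at its edge: 8957 tiles with 9 reads in the shallower library had 10.7% higher and 6.73% lower, and 9480 with 10 reads 10.5% and 6.40%.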

Other observations

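Complete switches between the end classes were rare. From methylated in Sca1-BCL6Δ HSPCs (above 80%) to unmethylated in B cells (below 20%) passed 28 tiles on 15 chromosomes. Of these 24 had under 10 CpGs (79.9% of all kept tiles have so few), and 5 were called (0.014% of all kept tiles were called lower). Of 27 also kept in wild-type, 19 were lower in wild-type B cells (25.3% of all shared tiles were), where the medians were 57.9% (HSPCs) and 29.9% (B cells). The opposite passage was made by 23 tiles on 13 chromosomes, all with under 10 CpGs. Of these 4 were called (0.024% of all kept tiles were called higher). Of 19 kept in wild-type, 17 were higher in B cells (72.7% of all shared tiles were), with medians of 75.0% and 87.3%. These tiles were chosen by their extreme levels in the Sca1-BCL6Δ libraries, at medians of 13.5 and 16 reads for the loss and 17 and 17 for the gain. The calls use the same levels, so the numbers called are no separate result.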
